A study of Mus musculus with 16 samples.

Results

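The comparison described here sets cells of mice with a stroke that received exosomes from atherosclerotic plasma against cells of mice with a stroke that received none. It uses 8 of the 16 libraries of the series, 4 labelled MCAO+AS-exos and 4 labelled MCAO, taken by their sample titles, with all 13982 genes of the expression table. The mice were of the C57BL/6 strain. Both groups had the middle cerebral artery occluded (MCAO), a surgical model of ischemic stroke, and the MCAO group got no exosomes. Into the tail vein of the MCAO+AS-exos mice went 150 µg of exosomes, first on the day of surgery and then at intervals of 3 days. These exosomes came from the plasma of Apoe knockout mice, which had become atherosclerotic on a western, high-fat diet over 12 weeks. The labels name both a western and a normal diet for the exosome donors and do not spell out which code had which. Cells of the infarcted cortex were stained for CD45 and CD11b, sorted and labelled as microglia. How long after surgery the cells were sorted is not stated, nor is it said that each library came from its own mouse, so p-values measure the spread between libraries, which may be technical. The other groups of the series were 4 libraries of MCAO mice given exosomes coded Ctrl-exos and 4 of Sham mice without occlusion. The labels of MCAO+Ctrl-exos carry the same dose of 150 µg, interval of 3 days and diet protocol of 12 weeks. Both groups entered the fit to estimate the spread of each gene. Sham also serves for levels of marker genes, and MCAO+Ctrl-exos is compared with MCAO and MCAO+AS-exos near the end.

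Microglia are the resident macrophages of the brain, and after a stroke they are joined in the infarct by monocytes and neutrophils from the blood. Exosomes are small vesicles that cells release with proteins, lipids and RNA, and phagocytes take them up. Ferroptosis, named in the title of the series, is a form of cell death driven by iron and by peroxidised membrane lipids, which the enzyme Gpx4 repairs with glutathione.

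The values are read as FPKM, fragments scaled by transcript length and library total, and differences are given as log2 fold changes of FPKM + 1. Totals were 759311 to 888937 FPKM in the 8 libraries, and 9403 to 10003 genes reached 1 FPKM. The files give no counts, so the sequencing depth is unknown. The microglial label was checked against 10 marker genes. Their summed level was 1164 to 1975 FPKM in MCAO and 1260 to 1913 FPKM in MCAO+AS-exos, against 20840.4 to 22941 FPKM in Sham. P2ry12, a purinergic receptor that defines resting microglia, stood at 42.3 to 51.9 FPKM in MCAO and 37.4 to 91.1 FPKM in MCAO+AS-exos, against 3156 to 5377 FPKM in Sham. Markers of monocytes summed to 4238 to 4842 FPKM in MCAO and 4038 to 7544 FPKM in MCAO+AS-exos, and markers of neutrophils to 1775 to 10283 FPKM in MCAO and 3575 to 8411 FPKM in MCAO+AS-exos, with replicate 4 the lowest in its group for both. In Sham they summed to 61.8 to 332 and 76.8 to 144 FPKM. Both injured groups are therefore called sorted cells here, and the part of blood cells in the results below was not tested. In such bulk libraries fewer cells of a type and less RNA per cell cannot be told apart.

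One library stood apart. On the first principal component of the 8 libraries, which held 42.7% of the variance, MCAO+AS-exos replicates 1, 2 and 3 scored 52.0, 54.7 and 62.6, while replicate 4 scored -20.0, next to the MCAO libraries at -44.5 to -27.6. Replicates 1 to 3 also lay closer to each other than MCAO libraries did. Over 5324 genes with a mean of at least 10 FPKM, the median absolute log2 difference was 0.204 to 0.257 within those 3 libraries, 0.362 to 0.469 between MCAO libraries and 0.580 to 0.644 between replicate 4 and the other 3. Results are accordingly given with and without replicate 4.

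With exosomes from atherosclerotic donors, 551 genes were lower and 115 higher at a limma adjusted p below 0.05, out of 10846 tested. That is a background of 5.08% lower and 1.06% higher, or 6.14% in all, against which every gene group below is read. Without replicate 4 the counts were 1602 lower and 422 higher, and 665 of the 666 genes were among them. The median log2 fold change over all tested genes was -0.17. Quantile normalization moved that median to -0.02 and left 222 lower and 96 higher genes, and scaling all totals to be equal moved it to -0.27 with 831 lower and 73 higher. In 1096 genes (10.1%) all 4 MCAO+AS-exos libraries were below all 4 MCAO libraries, and in 465 (4.29%) all were above.

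**Figure D1:**
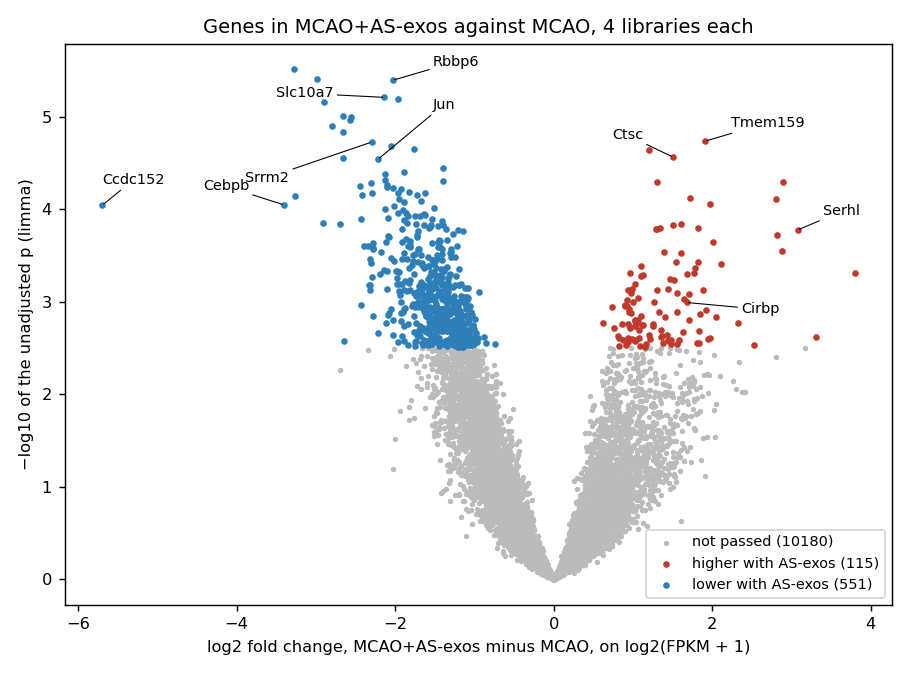
Each point is 1 of the 10846 tested genes; the horizontal axis is the log2 fold change of MCAO+AS-exos against MCAO on log2(FPKM + 1), the vertical axis the −log10 of the unadjusted limma p, blue points are the 551 genes that were lower and red points the 115 that were higher at an adjusted p below 0.05. Named points are among the genes described in the text, and the blue cloud is the larger one.

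Among well-expressed genes other than predicted gene models, several of the strongest falls were in regulators of transcription and RNA processing. The leading genes were chosen because they passed the threshold with all libraries and their groups did not overlap. Neither trait is therefore a further result for them. Cebpb, a transcription factor of myeloid and acute-phase genes, was at 160.3, 209, 206 and 299.96 FPKM in MCAO replicates 1 to 4 and at 10.7, 14.2, 5.03 and 157 FPKM in MCAO+AS-exos replicates 1 to 4. In the exosome group 3 libraries were far below every MCAO library and replicate 4 lay just under the lowest of them, so the groups did not overlap. The log2 fold change was -3.40 ± 0.69 (SE, n = 4 libraries per group, limma adjusted p = 0.0208), and it was -4.39 without replicate 4.
Jun, a subunit of the AP-1 transcription factor, had 62.1, 89.5, 114 and 128 FPKM in MCAO and 16, 12.3, 11.8 and 61.6 FPKM in MCAO+AS-exos. Again replicate 4 sat at the edge of the MCAO range without entering it. Jun fell by 2.22 ± 0.41 on the log2 scale (limma adjusted p = 0.0164), and without replicate 4 the fold change was -2.75. Srrm2, a large serine- and arginine-rich protein of the spliceosome and nuclear speckles, went from 131, 119, 119 and 134 FPKM to 19.7, 14.9, 15.1 and 82.2 FPKM. Here replicate 4 was clearly below MCAO as well, though much nearer to it than the other 3. The fold change of Srrm2 was -2.30 ± 0.41 (limma adjusted p = 0.0153) and -2.86 without replicate 4.

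The start regions of Cebpb and Jun, a pair of transcription factor genes that fell together, are shown for their composition. They run from 250 bases before to 50 bases after the annotated start in RefSeq's GRCm38.p6, an earlier build than the one the authors name. Cebpb lies at chr2:167688665-167688964 on the plus strand and Jun at chr4:95052173-95052472 on the minus strand. Capitals mark 3 motifs, searched on both strands. The GC box was read as GGGCGG or, from the other strand, as CCGCCC. The letters CCAAT were also read from the other strand, as ATTGG. The TATA box was read as TATAAA or, from the other strand, as TTTATA.
Cebpb: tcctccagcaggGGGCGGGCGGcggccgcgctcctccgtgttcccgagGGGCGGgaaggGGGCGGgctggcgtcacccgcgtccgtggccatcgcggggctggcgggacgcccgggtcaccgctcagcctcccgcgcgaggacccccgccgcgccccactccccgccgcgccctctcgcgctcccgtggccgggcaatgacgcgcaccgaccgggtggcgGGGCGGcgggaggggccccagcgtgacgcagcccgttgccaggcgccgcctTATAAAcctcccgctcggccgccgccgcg
Jun: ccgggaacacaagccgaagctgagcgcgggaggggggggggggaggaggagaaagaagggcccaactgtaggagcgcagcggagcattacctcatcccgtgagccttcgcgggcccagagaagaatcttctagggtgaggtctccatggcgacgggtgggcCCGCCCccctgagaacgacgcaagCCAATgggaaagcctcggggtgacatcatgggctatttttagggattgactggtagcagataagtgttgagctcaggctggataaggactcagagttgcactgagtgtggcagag
The Cebpb window holds 5 GC boxes, the first pair of which overlap, and 1 TATA box, with a GC content of 80.7%. The Jun window holds 1 GC box and 1 CCAAT box, with a GC content of 60%. Of 32851 promoters of the same length, 35.7% hold a GC box, 37.4% a CCAAT box and 13.6% a TATA box, and the median GC content is 52.7%. Neither window holds the AP-1 letters TGACTCA or TGAGTCA, found in 5.2% of promoters, or the cAMP response element TGACGTCA, found in 1.79%. Only exact letters were searched, so variants of these motifs were not counted. The Jun window holds tgacatca, which is 1 letter away from TGACGTCA.

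The falls differed in how near replicate 4 came to the other 3. Slc10a7, a member of the bile acid transporter family SLC10, was at 27.9, 20.5, 12.4 and 34.2 FPKM in MCAO and at 3.47, 3.99, 4.29 and 5.66 FPKM in MCAO+AS-exos. All 4 exosome libraries were close together and well below MCAO (log2 fold change -2.14 ± 0.35, limma adjusted p = 0.0124). Rbbp6, a ubiquitin ligase that binds RB1 and p53, had 27.5, 29.0, 20.5 and 32.0 FPKM in MCAO and 5.14, 4.2, 4.49 and 11.6 FPKM in MCAO+AS-exos, with a fold change of -2.03 ± 0.32 (limma adjusted p = 0.0124). In Rbbp6 replicate 4 was not close to the other 3 but lay between them and the MCAO libraries, below every MCAO library. Further leading falls were in Ptms, Alyref (an adaptor of mRNA export), Mafg (a small MAF protein that partners NRF2), Btg3, Spc24 (a kinetochore subunit) and Vegfb (a growth factor of the VEGF family). Predicted gene models were left out of the leading genes, 6 of them with falls of -2.99 to -2.57 that met the other criteria. Over the 12 leading genes, which were chosen for passing with all libraries, the fold changes ran from -3.40 to -2.02. Without replicate 4 they ran from -4.39 to -2.09 and all 12 passed, as did 665 of all 666 called genes.

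The rises were fewer and smaller. Ctsc, the lysosomal protease cathepsin C that activates serine proteases of immune cell granules, was at 108, 149, 163 and 185 FPKM in MCAO and at 506, 495, 568 and 227 FPKM in MCAO+AS-exos. Every exosome library was above every MCAO library, replicate 4 by the least. The log2 fold change was 1.51 ± 0.28 (limma adjusted p = 0.0164) and 1.81 without replicate 4. Tmem159, which encodes a protein of lipid droplet assembly, had 2.69, 5.19, 4.17 and 4.37 FPKM in MCAO and 19.9, 14.7, 17.4 and 20.4 FPKM with exosomes. In this gene replicate 4 was the highest of its group and the 4 libraries were alike. Tmem159 rose by 1.91 ± 0.34 on the log2 scale (limma adjusted p = 0.0153) and by 1.86 without replicate 4. Cirbp, the cold-inducible RNA-binding protein, went from 36.2, 21.5, 20.5 and 21.7 FPKM to 70.6, 99.1, 111 and 52.5 FPKM, with all of the exosome libraries higher (1.68 ± 0.43, limma adjusted p = 0.0349). Gpx3, the secreted glutathione peroxidase of plasma, went from 28.2, 20.1, 34.0 and 22.8 FPKM to 94.1, 88.1, 100.2 and 38.5 FPKM. Its replicate 4 was just above the MCAO range, and the fold change was 1.51 ± 0.32 (limma adjusted p = 0.0218). The other leading rises were in Serhl, H2aw, Timm21 (a subunit of the inner mitochondrial membrane translocase), Tmem176b, Commd9, Ift27 (an intraflagellar transport protein), Ccdc58 and Clp1 (an RNA kinase of RNA processing). The 12 genes, chosen by the same rule as the leading falls, ran from 1.51 to 3.08. Without replicate 4 they ran from 1.6 to 3.17 and all 12 passed, as did 665 of all 666 called genes.

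**Figure D2:**
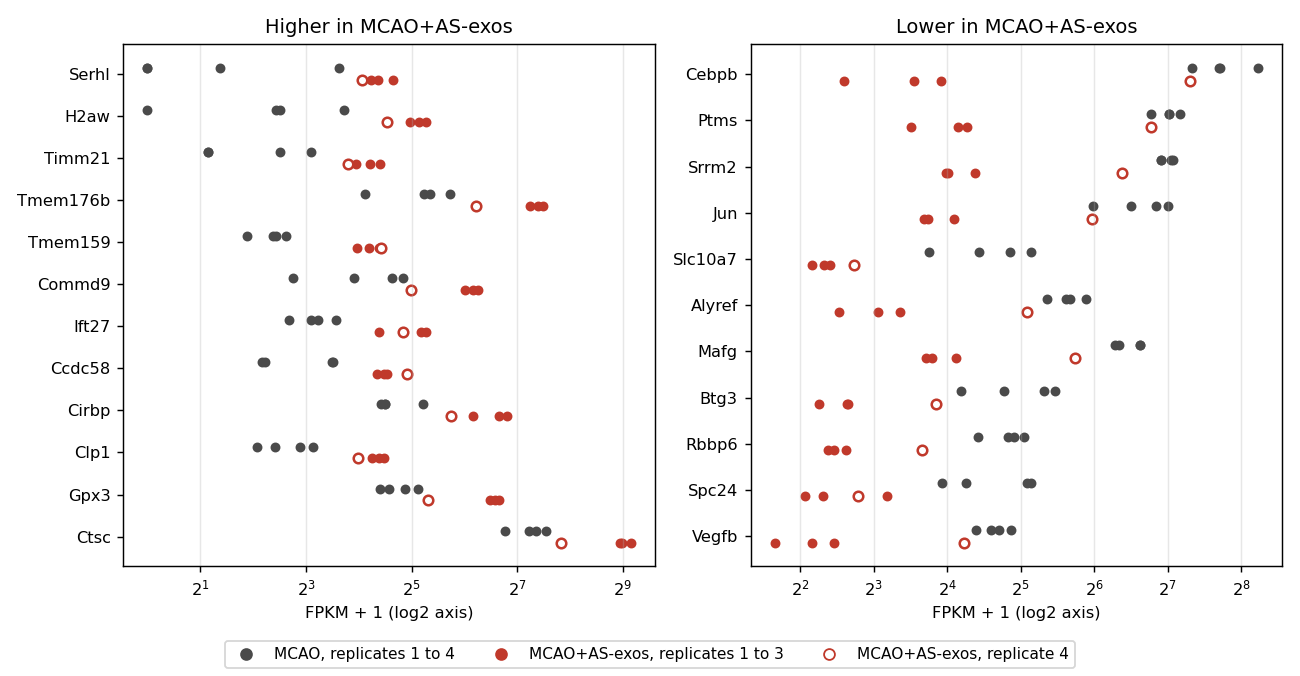
FPKM + 1 on a log2 axis for the 12 leading rises and 11 of the leading falls, 1 row per gene and 1 point per library; grey points are MCAO, filled red points MCAO+AS-exos replicates 1 to 3 and open red points replicate 4. In the falls, the open point usually lies between the filled red and the grey points, as for Cebpb at 157 FPKM, while for Tmem159 it lies with the filled ones.

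Some of these genes share exons with a neighbour in the GENCODE M21 annotation, and the labels do not say whether the counting used strand, so reads of such pairs may be assigned to either. Opposite-strand overlaps are Cebpb with Tmem189, Srrm2 with Elob, Btg3 with Cxadr, Serhl with Rrp7a and Tmem176b with Tmem176a. Mafg overlaps Sirt7 on the same strand. The plainest case outside the leading genes was Ccdc152, which overlaps Selenop, the gene of the plasma selenium carrier, on the opposite strand. Ccdc152 was at 509, 345, 1251 and 1458 FPKM in MCAO, at 3.59, 2.29 and 2.54 FPKM in MCAO+AS-exos replicates 1 to 3 and at 838 FPKM in replicate 4. Selenop, looked at after the values of Ccdc152 were seen, was at 549 to 1031 FPKM in MCAO, at 1814, 1114 and 1427 FPKM in replicates 1 to 3 and at 836 FPKM in replicate 4. The fall of Ccdc152 (-5.69 ± 1.16, limma adjusted p = 0.0208) was carried by the 3 libraries in which Selenop was above every MCAO library.

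Splicing factors and nuclear RNA-binding proteins held the largest share of falls among the 35 process lists. Of 37 tested, 15 fell and 0 rose, 40.5% against the 5.08% of all genes, with a median log2 fold change of -0.81 beside -0.17 for all tested genes. Besides Srrm2, U2af2, which reads the 3′ splice site, went from 51.6, 59.0, 64.2 and 47.4 FPKM to 6.65, 6.60, 7.12 and 49.7 FPKM. Replicate 4 was inside the MCAO range and the other 3 far below it (-2.18 ± 0.49, limma adjusted p = 0.0261). Luc7l2 and Luc7l3, relatives of a U1 snRNP protein, fell by 1.92 and 1.72. Tardbp, an RNA-binding protein that represses cryptic exons, fell by 1.36. Srsf2, Snrnp70, Son, Rbm25, Hnrnpl, Hnrnph1, Ddx17, Srrm1 and Srsf11 were among the others that fell. The list did not move as one: Hnrnpk had a fold change of 0.15 ± 0.21 and Ddx5 one of 0.40 ± 0.21, neither past the test. Relative to the MCAO mean, the list's median was -0.87, -1.06 and -0.84 in replicates 1 to 3 and -0.17 in replicate 4. Without replicate 4, 22 members fell and 1 rose, where 1602 and 422 of all 10846 genes did. After quantile normalization 8 fell, where 222 of all genes did.

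Chromatin and transcription regulators followed, with 10 of 32 lower (31.2%), 0 higher and a median of -1.12. Chd7, a chromatin remodeller, was at 28.3, 30.3, 18.6 and 23.8 FPKM in MCAO and at 4.62, 5.86, 4.94 and 15.7 FPKM in MCAO+AS-exos. The groups did not overlap, and replicate 4 was again the nearest to MCAO (-1.72 ± 0.37, limma adjusted p = 0.022). The histone acetyltransferases Ep300 and Crebbp fell by 1.73 and 1.31, the H3K36 methyltransferase Setd2 by 1.45, the DNA methyltransferase Dnmt1 by 1.56 and the transcription elongation kinases Cdk12 and Cdk13 by 1.41 and 1.57. Bptf, Atrx and the corepressor Ncor1 were the other 3. Hdac1, a histone deacetylase, was the 1 member with a positive fold change (0.24 ± 0.28) and did not pass. Medians of the list were -1.4, -1.37 and -1.56 in replicates 1 to 3 and -0.28 in replicate 4. Without replicate 4, 25 of the 32 fell, where 1602 of all 10846 genes did. After quantile normalization 1 fell, where 222 of all genes did.

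**Figure D3:**
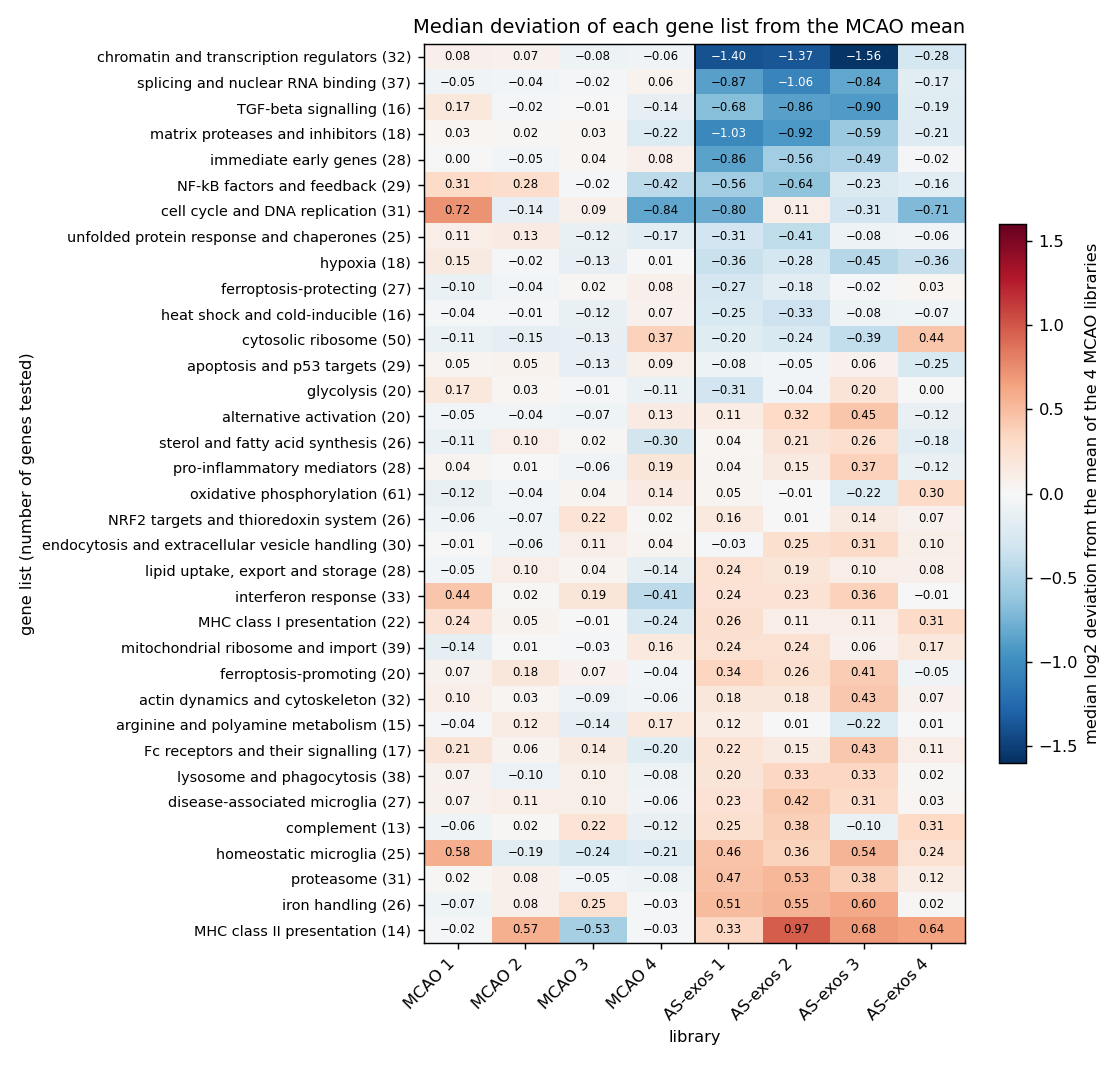
Rows are the 35 process lists, columns the 8 libraries, and each cell gives the median log2 deviation of the list from the mean of the 4 MCAO libraries (red above, blue below). Chromatin regulators and splicing factors are deepest below in MCAO+AS-exos replicates 1 to 3 and at -0.28 and -0.17 in replicate 4.

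Immediate early genes, which cells switch on within minutes of a stimulus, were lower in 7 of 28 (25%) and higher in 0, with a median of -0.49. Beside Jun these were Jund, Fosl2, Ier5, Btg1, Klf2 and Klf4. Btg1, an antiproliferative factor, went from 186, 207, 170.1 and 219 FPKM to 62.5, 69.6, 69.5 and 154 FPKM, with no overlap (-1.23 ± 0.27, limma adjusted p = 0.0252). Jund behaved otherwise, at 37.8, 35.4, 47.2 and 52.6 FPKM in MCAO, at 4.2, 4.51 and 3.11 FPKM in replicates 1 to 3 and, above all of MCAO, at 64.6 FPKM in replicate 4. The best-known members did not pass: Egr1 had a fold change of -0.46 ± 0.22 and Atf3 one of -0.28 ± 0.18. Over the list, replicate 4 deviated from MCAO by a median of -0.02, against -0.86, -0.56 and -0.49 in the other 3.

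Hypoxia genes fell in 4 of 18 (22.2%). Ddit4, an inhibitor of mTORC1, was at 4.58, 4.77, 1.93 and 4.10 FPKM in MCAO and at 0.19, 0.41, 0.40 and 1.37 FPKM with exosomes, all below MCAO (-1.61 ± 0.41, limma adjusted p = 0.0343). Mxi1, an antagonist of MYC, fell by 1.32, the oxygen sensor Egln1 by 1.17 and the angiogenic factor Vegfa by 1.91, Vegfa with overlapping groups. Of 26 genes of the NRF2 pathway and the thioredoxin system, 4 fell (15.4%): Keap1 and Bach1, which restrain the pathway, by 1.51 and 1.08, and Gclc, which makes glutathione, and Srxn1, which repairs peroxiredoxins, by 1.34 and 1.26. None of the 26 passed after quantile normalization or after the removal of length and GC trends described below. Irak1 and Rel, of 29 genes of NF-kB signalling, fell by 1.5 and 1.36. Mmp14, a membrane-bound protease, Thbs1 and Timp2 fell among 18 matrix genes. TGF-beta signalling had a median of -0.76 over 16 genes, 14 of them negative (87.5% against 59% of all genes), but none passed at the adjusted threshold. At an unadjusted limma p below 0.05, 10 of the 16 were lower, where 18.8% of all genes were. Without replicate 4, 5 fell at the adjusted threshold, where 1602 of all 10846 genes did. The median was -0.35 with length and GC trends removed.

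On the higher side, groups of the phagocyte's degradation and recognition machinery held a few genes each. After quantile normalization 96 of all 10846 genes rose. Of the lists below, 1 lysosomal, 1 Fc receptor, 1 proteasome and 1 lipid gene rose in that fit. Of the complement, MHC class II, respiratory chain and actin lists 0 rose, and 1 actin gene fell. Among 38 lysosomal and phagocytic genes, 3 rose (7.89% against 1.06% of all genes) and 0 fell: Ctsc, Cd68 and the protease Ctss. Without replicate 4, 7 of them rose and 5 fell, where 422 and 1602 of all 10846 genes did. Cd68, a lysosomal membrane glycoprotein of macrophages, was at 1287, 1380.4, 1474 and 943 FPKM in MCAO, at 2919, 2791 and 2754 FPKM in replicates 1 to 3 and at 1441 FPKM in replicate 4, inside the MCAO range (0.93 ± 0.24, limma adjusted p = 0.0367). Of 13 complement genes, C1qa and C1qb, chains of the C1q recognition molecule, rose by 1.12 and 0.90, while Itgam, the CD11b chain of complement receptor 3 and part of the sort, fell by 1.0. Itgam had 121, 131, 188 and 146 FPKM in MCAO and 52.0, 54.7, 62.7 and 146 FPKM with exosomes, so that replicate 4 was at the MCAO level. Ptprc, which encodes CD45, had a fold change of -0.90 ± 0.28 and did not pass (limma adjusted p = 0.0589), but did without replicate 4 (-1.16, limma adjusted p = 0.00578).

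Fcgr3 and Fcgr4, activating receptors for antibody-coated particles, rose by 0.96 and 1.4 among 17 genes of Fc receptor signalling. Fcgr4 was at 81.7, 153, 139 and 111 FPKM in MCAO and at 329, 361, 387 and 205 FPKM in MCAO+AS-exos, with no overlap. MHC class II presentation had a median of 0.69 over 14 genes, of which Ctss and H2-DMa, a peptide-loading chain, rose. Cd74, the invariant chain, went from 1118, 2308, 772 and 1011 FPKM to 2939, 4072, 3157 and 2302 FPKM and just missed the threshold (1.36 ± 0.40, limma adjusted p = 0.0502). Proteasome subunits had positive fold changes in 28 of 31 (90.3% against 40.9% of all genes), with a median of 0.40, and 1 of them, the deubiquitinating subunit Psmd14, rose (1.06 ± 0.27). Without replicate 4, 8 of the 31 rose, where 422 of all 10846 genes did. With length and GC trends removed 0 rose (Psmd14 had a limma adjusted p of 0.0551). Among 61 respiratory chain genes 4 rose, Uqcrc1, Ndufs8, Cyc1 and Sdhb, while the median of that list was 0.08. Without replicate 4, 9 of the 61 rose and 4 fell, where 422 and 1602 of all 10846 genes did, and the list's median was -0.04. Pltp, which transfers phospholipids between lipoproteins, and Pnpla2, the lipase that opens lipid droplets, rose by 1.03 and 1.25 among 28 lipid genes, and Cdc42 and Arpc4, of actin assembly, by 0.74 and 0.83 among 32. No cytosolic ribosomal protein of 50 passed. At an unadjusted limma p below 0.05, 5 were higher and 4 lower, where 6.91% and 18.8% of all genes were. Without replicate 4, 10 of the 50 fell and 2 rose at the adjusted threshold, with a median of -0.29. Of all 10846 genes, 1602 fell and 422 rose in that fit.

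Gpx4 and the other central genes of ferroptosis did not pass. A few genes of iron storage and glutathione did, and the counts are set beside the share of all genes below. Gpx4 was at 679.9, 745, 559 and 807 FPKM in MCAO and at 971, 1028, 788 and 768 FPKM with exosomes, overlapping groups with a fold change of 0.35 ± 0.22 (limma adjusted p = 0.328). Slc7a11, the cystine importer, had -0.64 ± 0.45 and Acsl4, which loads membranes with oxidisable fatty acids, -0.58 ± 0.35, and neither passed with or without replicate 4. Ftl1, the light chain of the iron store ferritin, was at 13443, 15068, 12839 and 12919 FPKM in MCAO, at 33850, 31957 and 25979 FPKM in replicates 1 to 3 and at 13324 FPKM in replicate 4. It passed with all libraries (0.87 ± 0.25, limma adjusted p = 0.0472), although replicate 4 was inside the MCAO range. The heavy chain Fth1 had 0.40 ± 0.17 (limma adjusted p = 0.136) and passed without replicate 4. Pcbp1, an iron chaperone that feeds ferritin, and Slc39a14, an iron importer, fell by 1.07 and 1.5. Of 20 genes that promote ferroptosis 1 rose (Vdac3, 5%) and 0 fell. Of 27 that protect from it 1 rose (Ftl1, 3.7%) and 2 fell (Gclc and Pcbp1, 7.41%). Among all genes 1.06% rose and 5.08% fell, so these few calls are no result about the lists. With length and GC trends removed, 1 of the 20 and 0 of the 27 passed. Hmox1, the enzyme that frees iron from heme, had 0.78 ± 0.59 and did not pass.

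None of 28 pro-inflammatory mediators passed in limma's test at the adjusted threshold, and 2 were lower and 0 higher at an unadjusted p below 0.05, where 18.8% of all genes were lower and 6.91% higher. Il1b, the cytokine interleukin-1β, was at 325, 449.7, 520.1 and 883 FPKM in MCAO and at 886, 1188, 1521 and 563 FPKM with exosomes. Replicates 1 to 3 were above every MCAO library and replicate 4 among them (0.94 ± 0.52, limma adjusted p = 0.268). Tnf overlapped fully, at 19.5 to 78.0 and 17.9 to 69.8 FPKM, and Il6 was at 0.06 FPKM or below in all 8. Arg1, an enzyme of alternative activation, had 0.73 ± 0.34 (limma adjusted p = 0.18) and passed without replicate 4 at 1.10. The same held for Apoe, the lipid carrier that the exosome donors lack, with 0.76 ± 0.25 (limma adjusted p = 0.0746) and 0.98 without replicate 4. Trem2, a lipid receptor of phagocytes, was at 317 to 499 FPKM in MCAO and 579.9 to 783 FPKM with exosomes, without overlap, at 0.67 ± 0.22 (limma adjusted p = 0.075), and passed without replicate 4 (0.75, limma adjusted p = 0.0351). No member of the homeostatic microglia list (25 genes) or of the interferon list (33 genes) passed, with 5 and 1 higher and 2 and 1 lower at an unadjusted limma p below 0.05.

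How far replicate 4 shared these differences depended on the genes. Of the 1602 genes that fell without it, replicate 4 was on the same side of the MCAO mean in 73%, by a median of -0.25 against -1.41 in the other 3, and inside the MCAO range in 53.1%. Over all tested genes, whatever the other 3 did, replicate 4 was below the MCAO mean in 53.4% and inside the MCAO range in 64%. Of the 422 that rose without it, replicate 4 was above the MCAO mean in 68.7%, by a median of 0.21 against 1.22 in the other 3. Among the genes in which it differed most from the other 3 were Ccdc152, Chmp4b, Bri3, Basp1, Sdc3 and Jund, in all of which it lay inside or above the MCAO range. Chmp4b, a subunit of the ESCRT-III complex that buds vesicles into endosomes, was at 85.2 to 142 FPKM in MCAO, at 6.87, 8.2 and 4.59 FPKM in replicates 1 to 3 and at 117 FPKM in replicate 4.

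The number of genes called rested on few libraries. Leaving out 1 MCAO library left 37 to 133 genes. Without MCAO+AS-exos replicate 1 there were 2, and without replicate 2 or replicate 3 none, beside 1918 and 1933 at an unadjusted limma p below 0.05. The 2 genes, named here after their values were seen, were Mgp and Ly6c1. Mgp, a matrix protein of vessel walls and cartilage, was at 1.08, 8.96, 55.1 and 169 FPKM in MCAO+AS-exos and at 3.24 FPKM or below in MCAO, and Ly6c1, a surface protein of endothelial cells, at 1.96, 7.17, 19.7 and 49.5 FPKM against 3.05 FPKM or below. Markers of endothelial and mural cells summed to 4.56, 5.45, 6.89 and 15.5 FPKM in those 4 libraries and to 1.92 to 8.23 FPKM in MCAO, and their part in the pair was not tested. Of that list, 6 of 11 genes were in the table and 3 were tested. Fitting the 8 libraries alone, without the other groups, left 31 genes. Counting replicates 1 to 3 as a single library, by their mean, left 0 genes (856 at an unadjusted limma p below 0.05). Of the 73 named genes that passed, none passed in all 8 fits that left out a library. Passing in 5 of them were 8 genes, among them Alyref, Jun, Mafg, Rbbp6, Slc10a7, Srrm2 and Tmem159.

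**Figure D4:**
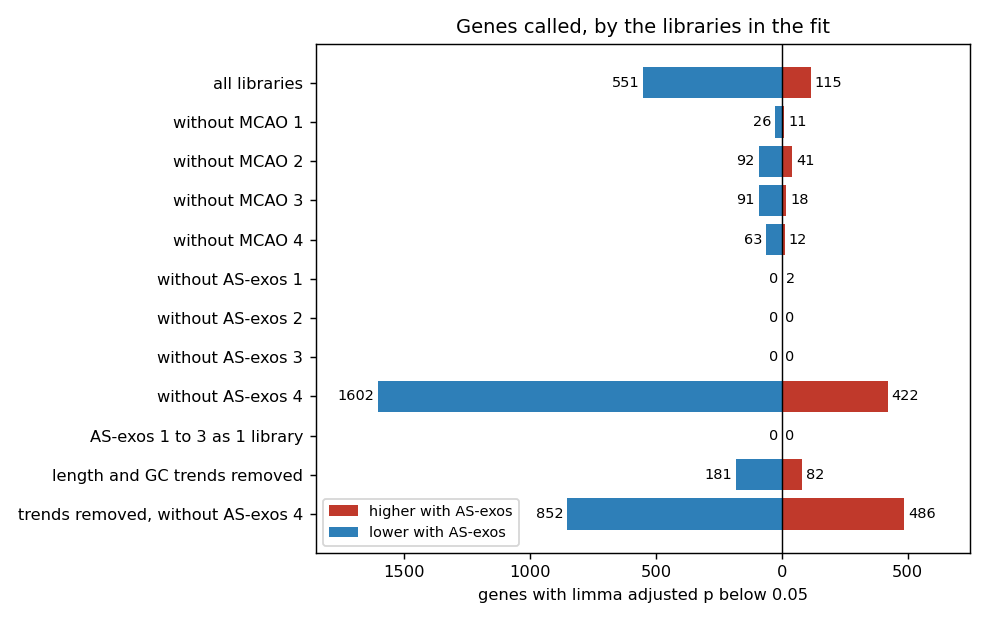
Bars from 0 count the genes with a limma adjusted p below 0.05, higher to the right in red and lower to the left in blue, for the fit with all libraries and for fits that leave out a library, average replicates 1 to 3 or remove trends in transcript length and GC content. The count falls to 2 or 0 without replicate 1, 2 or 3 and reaches 1602 lower and 422 higher without replicate 4.

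The falls leaned towards long transcripts. The 527 lower genes with an annotated length had a median of 2812 bases, against 1288 for the higher genes and 2071 for all. With genes split by length into 5 equal bins, 7.95% fell in the bin of the longest transcripts and 3.06% in that of the shortest. That tilt was in the libraries as a whole: the longest bin was a median of 0.69, 0.76 and 0.77 log2 units below MCAO in replicates 1 to 3, and 0.15 below in replicate 4, whereas the shortest bin was 0.02 to 0.10 above. With trends in length and GC content removed from each library, 181 genes were lower and 82 higher, or 852 and 486 without replicate 4, and the median of all genes was 0.02. The 12 leading falls all passed in that fit, at -2.67 to -1.42, as did the 11 leading rises that have a length. Each length was the median over a gene's protein-coding transcripts, which can differ from the transcript that is expressed. Srrm2 was entered at 950 bases, and how far its fall shares the tilt was not tested. Of the groups, 10 of 37 splicing factors still fell (median -0.68), where 181 of all 10625 genes did. Of the chromatin regulators, a list with a median length of 5299 bases, 5 of 32 did. Of the immediate early genes 1 of 28 did (Jun), while the median of the hypoxia list turned from -0.31 to 0.05. Of the 72 named genes that had passed and have a length, 25 no longer did. Among these were Gclc, Srxn1, Pcbp1, Ftl1, Vegfa, Rel, Btg1, Jund, Klf4 and Itgam, and of the rises Cd68, Ctss, Fcgr3, Psmd14, Pltp, Pnpla2, Sdhb, Ndufs8 and Arpc4. Apoe did, at 0.86 (limma adjusted p = 0.0485).

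**Figure D5:**
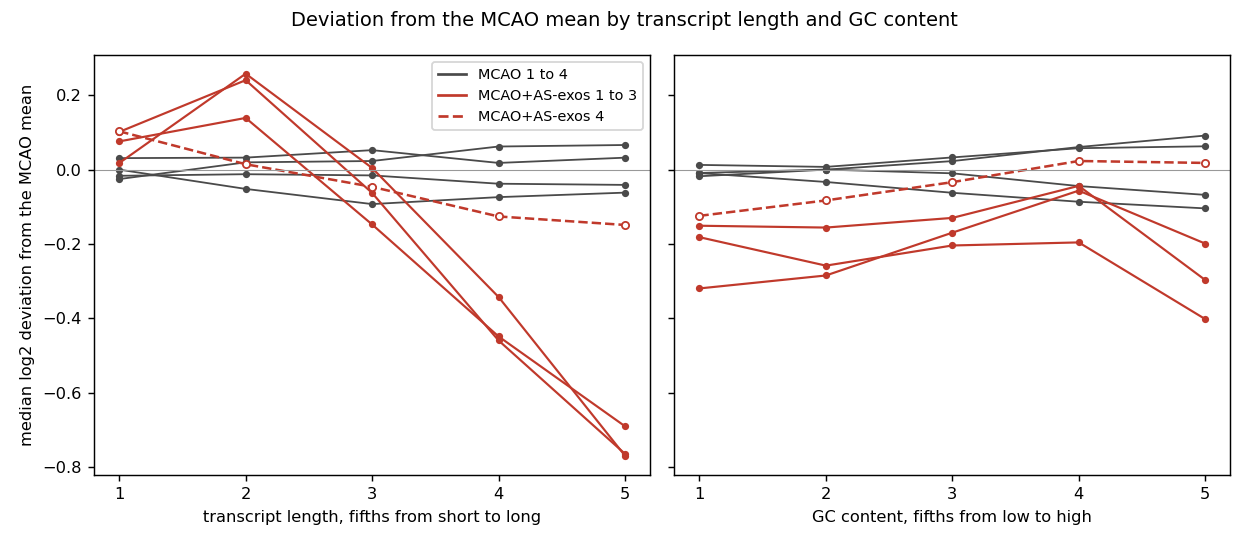
Lines give, for each library, the median log2 deviation from the MCAO mean over 5 equal bins of the tested genes by transcript length (left) and GC content (right); grey lines are MCAO, solid red lines MCAO+AS-exos replicates 1 to 3 and the dashed red line replicate 4. The solid red lines drop to between -0.77 and -0.69 in the longest bin, where the dashed line is at -0.15.

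The same MCAO libraries also serve as the controls of the MCAO+Ctrl-exos group, so differences of both exosome groups from MCAO are first set side by side. A direct test between the exosome groups follows. For the 12 leading falls, MCAO+Ctrl-exos minus MCAO ran from -1.24 to 0.01 (median -0.66), with 0 past the threshold. In that comparison 0.0277% of all genes were lower and 0.0461% higher. For the 12 leading rises it ran from -0.69 to 2.54 (median 1.16), with 1 past the threshold (Ccdc58, 1.93). The medians for MCAO+AS-exos minus MCAO were -2.12 for the falls and 1.80 for the rises. Cebpb was at 198, 82.8, 84.9 and 170.1 FPKM in MCAO+Ctrl-exos, and Ctsc at 98.9, 141, 153 and 149 FPKM. Tested directly against MCAO+Ctrl-exos, 0.157% of all genes were higher and 0.129% lower in MCAO+AS-exos. Of the 12 leading falls 0 passed in that contrast, at -2.62 to -0.82 (median -1.46). Of the 12 leading rises, which ran from -0.20 to 2.37 (median 0.79), 3 passed. The leading genes had been chosen on the same MCAO+AS-exos libraries. MCAO+AS-exos was higher in Ctsc (1.66 ± 0.28, limma adjusted p = 0.0223), Tmem159 (1.89 ± 0.34, limma adjusted p = 0.0285) and Cirbp (2.37 ± 0.43, limma adjusted p = 0.0285). It was lower in Maf, a transcription factor of tissue macrophages (-1.69 ± 0.34, limma adjusted p = 0.042), which was at 70.7 to 90.3 FPKM in MCAO, 77.6 to 94.7 FPKM in MCAO+Ctrl-exos and 25.2, 18.0, 13.6 and 64.2 FPKM in MCAO+AS-exos. Ccdc152, described above with its overlapping neighbour, was lower too (-5.86 ± 1.16, limma adjusted p = 0.0392). Medians of the splicing list relative to MCAO were -0.51 to -0.15 in the MCAO+Ctrl-exos libraries, and those of the chromatin list -0.59 to 0.01.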

How the data were processed

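Libraries were prepared by cDNA amplification and a transposase, per the labels' protocols. HISAT2, Bowtie2, RSEM 1.3.1 and the build GRCm39.p6 are named, without their roles, per the submitters' processing notes; annotation, filters and strandedness have no source here. The deposited values, inferred to be FPKM from the naming of RSEM and from library totals that differ, were scaled by the authors to transcript length and library total; they could also be TPM of a part of the genes. The 16 single files and the table held identical values, and 134 genes were at 0 in all 16 libraries. Depth is unknown, so no counting error was computed.

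Here log2(FPKM + 1) of the 10846 genes that reached 1 FPKM in 4 or more of 16 libraries (3136 did not) was fitted with limma 3.58.1 in R 4.3.3: 1 mean per group over 16 libraries, the contrast MCAO+AS-exos minus MCAO, eBayes with trend and robust, two-sided, Benjamini-Hochberg over all tested genes, threshold 0.05. Errors of folds are moderated standard errors. The rule for named genes took, per direction, the 12 largest fold changes among genes past the threshold, in the upper 50% by level and without overlap between groups; up to 2 members with the smallest p of each of 35 process and 15 cell type lists; a list of genes of ferroptosis, inflammation and microglia (Nos2 is not analysed here); and, per direction, the 8 well-expressed genes in which replicate 4 differed most from replicates 1 to 3. Predicted gene models (names in Gm, Rik, LOC or AC form) were left out of the first and last sets. Other members of a list are named where a count is spelled out, after their values were seen. Members, lists and tests were chosen with earlier results of these data known. Transcript length and GC content came by symbol from GENCODE M21 (GRCm38), for 10625 tested genes. Each was the median over a gene's protein-coding transcripts, or over all its transcripts where none is protein-coding. The trend was a natural spline with 4 degrees of freedom for each. Promoter sequences are RefSeq's. Replicate numbers were not taken as pairs. The procedure was tested on simulated data. Some named genes are not reported here. Alternatives are in the closing section.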

Additional observations from a re-analysis of the deposited data

Results flagged for a closer look

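In 41 of the 362 groups of 4 libraries examined, 1 library stood away from the other 3 by more than Dixon's critical share of the group's range. A group held a named gene's log2(FPKM + 1), a list's median log2 deviation from the MCAO mean, or a measure of whole libraries such as total FPKM. Values of genes are printed below as FPKM. Chance alone flags about 1 group in 20, but that rate does not hold here for the genes named because replicate 4 differed most from replicates 1 to 3, such as Ccdc152, Chmp4b, Jund, Basp1, Msrb2 and Tsen15. No explanation was tested for any of them.

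Most of these cases were in MCAO+AS-exos replicate 4. It was above its group for Srrm2 (82.21 FPKM), Isg15 (12.24), Btg1 (153.88), Hsp90b1 (362.35), Mmp14 (93.79), Smad7 (9.77), Chmp4b (116.68), Gp9 (0.61), Ccdc152 (837.84), Jund (64.59) and Basp1 (115.51). It was below its group for Gpx3 (38.53 FPKM), Ctsc (227.49), Cd68 (1440.9), Fcgr3 (495.85), Oas1a (39.76), Rplp0 (1228.66), Psmd14 (99.95), Ms4a6b (185.92), Msrb2 (0.09) and Tsen15 (0.48). Its median deviations were 0.0207 for iron handling, below 0.51 to 0.60 in the other 3, and -0.28 for chromatin regulators, above -1.56 to -1.37. MCAO+AS-exos replicate 2 stood apart for Cav1 at 1.3 FPKM and for the hemoglobin gene Hba-a1 at 2.14 FPKM, where the other 3 were at 0.

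Among the MCAO libraries, replicate 1 was high for Cirbp (36.24 FPKM) and low for Ndufs8 (118.16 FPKM), with medians of 0.58 for homeostatic microglia genes and 0.59 for microglia markers. Replicate 2 was high for Mrps16 (80.4 FPKM) and Il6 (0.06 FPKM) and low for Acsl4 (9.89 FPKM) and Treml1 (0 FPKM). Replicate 3 was low for Rplp0 (794.12 FPKM), Rpl4 (428.24 FPKM) and Cd79b (0.25 FPKM) and high for Hba-a1 (66.47 FPKM, the others at 0). Replicate 4 was low for Oas1a (8.31 FPKM), with medians of 0.13 for alternative activation, 0.37 for the cytosolic ribosome and -0.22 for matrix genes.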

How the results depend on the processing

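The count of called genes, 666 with 115 higher and 551 lower, moved with most choices. Quantile normalization gave 318 (222 lower), equal totals 831 lower and 73 higher, and removal of length and GC trends 263 (181 lower). Library quality weights, which gave MCAO+AS-exos replicate 2 a weight of 6.27 and replicate 4 one of 0.320, gave 3955 (1138 higher, 2817 lower). The 8 compared libraries alone gave 31 (13 higher, 18 lower), and 12 libraries without Sham 196 higher. Leaving out each library in turn gave 0 to 2024 genes, 0 to 422 higher and 0 to 1602 lower. In alternatives chosen after seeing the data, trend removal without MCAO+AS-exos replicate 4 gave 1338 (486 higher, 852 lower), and replicates 1 to 3 averaged as 1 library gave 0 in each direction by limma, with 856 at an unadjusted p below 0.05. The total stayed within 1.5 times at 764 genes unfiltered, 718 with a 5 FPKM minimum, 563 with 0.1 as pseudocount and 710 without limma's trend and robust options. None of the 73 named genes that passed changed sign under these settings, where a value could be had (H2aw has none with trends removed); the sign of the other called genes was not compared. The causes of these shifts were not tested.

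With the replicate number as a block, 460 genes passed (78 higher, 382 lower). Deviations of same-numbered libraries correlated at -0.08 to 0.09, and 4 of 8 libraries correlated best with their own number. These values do not settle whether the numbers pair the libraries. The files hold no counts, so how depth limits low genes is unknown.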
